A study of Mus musculus with 17 samples.

Results

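The cerebella described here lacked Bax and Bak, with and without Atr, and so show the RNA response to Atr loss where the mitochondrial path to apoptosis was blocked. They were chosen by their genotype labels and make up 9 of the 17 samples of the series. All were whole cerebella of C57BL/6 mice at postnatal day 3, from which the meninges had been removed, and poly-A selected RNA was sequenced. The 5 Atr-deleted samples carried Math1-Cre together with Atr-loxP/loxP, with Bax-loxP/loxP and with Bak--/-, and the 4 control samples carried Math1-Cre together with Bax-loxP/loxP and Bak--/-. Both groups therefore shared the Math1-Cre transgene, the floxed Bax alleles and the Bak null alleles, and only the floxed Atr alleles differed. Math1-Cre recombines chiefly in the granule neuron lineage, and cells of the cerebellum without Cre activity kept Atr and Bax, while Bak was absent from every cell. The labels do not say that the samples of a group came from separate animals, and p-values here measure the spread between these samples.

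Atr is the kinase that senses stalled replication forks, slows the cell cycle through Chk1 and keeps cells from dividing with unreplicated DNA. Granule neuron progenitors divide rapidly in the outer layer of the postnatal cerebellum and are known to depend on such surveillance. Bax and Bak form the pores of the outer mitochondrial membrane that commit a cell to apoptosis, and p53, which acts upstream of them, can also arrest the cell cycle by switching on genes such as Cdkn1a.

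The 9 libraries held between 42987953 and 100659645 estimated counts, so that 1 count corresponded to at most 0.0233 CPM, the count scaled to library size. On log2 CPM the first principal component held 43.9% of the variance and separated the genotypes. The second held 19.96% and separated the 2 control libraries numbered 100019 from the 2 numbered 1842, with genes of the choroid plexus such as Ttr and Kcne2 at the end of the 100019 libraries and the Y-linked Eif2s3y, Ddx3y, Uty and Kdm5d leading the other end. The sum of these 4 Y-linked genes was 5.21 CPM in control 1, of the 100019 series, and 6.86 to 8.15 CPM in Atr-deleted libraries 1, 2 and 3, against 211 to 236 CPM in the other 5 libraries. The groups thus held 1 of 4 and 3 of 5 libraries with little Y-linked RNA, and the part of sex in the results was not tested. All Atr-deleted libraries carried the number 1836, and the effect of genotype cannot be told apart from that of the number series. RNA encoded by the mitochondrial genome made up 1.81% to 2.55% of the counts in controls and 3.53% to 4.35% in Atr-deleted libraries.

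The genes deleted by design were read first. Atr, on chromosome 9, stood at 44.6, 43.1, 48.0 and 38.8 CPM in the controls and at 41.9, 42.0, 38.9, 44.1 and 36.5 CPM in the Atr-deleted libraries. These ranges overlapped, and a two-sided exact permutation test gave p = 0.214 (adjusted over the 3 genes, 0.643). Bax lay between 31.1 and 37.1 CPM in controls and between 25.03 and 36.3 CPM in Atr-deleted libraries. Bak1, the gene of Bak, was at or below 0.616 CPM in all 9. Whole-gene counts in a tissue where only part of the cells recombine do not check the Atr label closely.

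Atr loss was accompanied by a change in a large part of the transcriptome. Of 17425 genes tested with edgeR's quasi-likelihood test (adjusted p below 0.05, Benjamini-Hochberg), 7756 changed, which is 44.5%. Of these 3926 were higher in the Atr-deleted cerebella (22.5%) and 3830 were lower (22.0%). Rises were more often large: 640 genes rose over 2-fold and 134 fell over 2-fold. The median log2 fold change of all tested genes was 0.04. The balance of directions depended on scaling, with 3602 higher and 4063 lower under median-of-ratios scaling, 4295 and 3581 under upper-quartile scaling, and 3468 and 4226 after removal of mitochondrially encoded RNA. In whole tissue, fewer cells of a type and less RNA per cell cannot be told apart.

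Among called genes with at least 5 CPM in the higher group and groups that did not overlap, the 10 of largest fold change were Pla2g2f, Sgca, Mab21l3, Zfp750, Fas, Alox5, Pmaip1, Vwce, Kcnj5 and Anxa8. Pla2g2f, which encodes a secreted phospholipase of skin, had 0.327, 0.0453, 0.125 and 0.143 CPM in the controls and 4.60, 6.22, 6.09, 5.78 and 4.56 CPM in the Atr-deleted libraries. Every Atr-deleted library was far above every control, with a log2 fold change of 5.12 ± 0.35 (SE; adjusted p = 3.63e-06). Sgca, the alpha-sarcoglycan of the muscle membrane complex, went from 0.244 ± 0.0790 CPM (SD, n = 4) to 7.09 ± 1.002 CPM (SD, n = 5), a log2 fold change of 4.84 ± 0.23. Zfp750, a transcription factor of epidermal differentiation, went from 0.583 ± 0.253 to 10.2 ± 1.53 CPM. Mab21l3 went from 0.338 ± 0.0761 to 6.76 ± 1.07 CPM, and Vwce from 0.491 ± 0.217 to 5.09 ± 0.714 CPM. Sgca and Zfp750 are known chiefly from other tissues than brain.

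Pmaip1, the gene of Noxa, a BH3-only protein that acts just before Bax and Bak, was the most abundant of the 10. Its controls were 4.04, 3.90, 4.37 and 4.46 CPM and its Atr-deleted libraries 34.3, 53.7, 68.3, 51.2 and 42.6 CPM. The Atr-deleted values were more spread than the controls, and the lowest was still well above the highest control (log2 fold change 3.57 ± 0.20, adjusted p = 2.95e-06). Fas, the death receptor that can start apoptosis from the cell surface, rose 17.0-fold, from 0.286 to 0.421 CPM in controls to 4.53 to 6.33 CPM. Alox5, the lipoxygenase that begins leukotriene synthesis, had 0.982, 0.430, 1.21 and 0.786 CPM in controls and 13.5, 15.8, 14.7, 14.96 and 13.4 CPM after Atr loss. Its 5 Atr-deleted values were close together, so the 4.07 ± 0.23 log2 rise was carried by all of them alike. Kcnj5, a G protein-gated potassium channel subunit, rose from 1.53 ± 0.406 to 12.96 ± 2.09 CPM. Anxa8, an annexin, had the widest error of the 10 (log2 fold change 2.80 ± 0.60, adjusted p = 0.00487). Its controls were 1.22 and 1.54 CPM in the 100019 libraries and 0.306 and 0.184 CPM in the 1842 libraries, against 3.89 to 7.86 CPM after Atr loss.

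**Figure D1:**
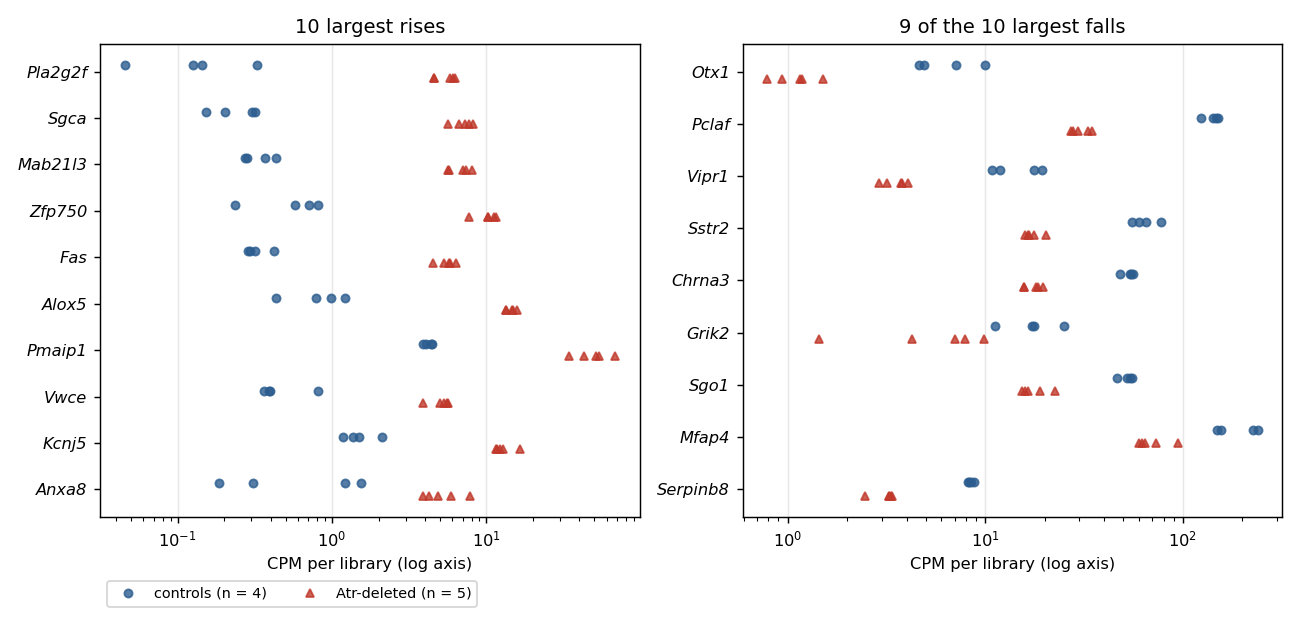
Expression of the 10 largest rises and 9 of the 10 largest falls in each library, in CPM on a log axis, with controls and Atr-deleted libraries as separate points. The groups do not overlap for any of the 19 genes, which the naming rule required. The rule asks for at least 5 CPM in the higher group, so only rising genes can be near silent in controls, where Pla2g2f and Sgca lie below 1 CPM.

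The largest falls described here, 9 of the 10, were of other kinds: Otx1, Pclaf, Vipr1, Sstr2, Chrna3, Grik2, Sgo1, Mfap4 and Serpinb8. Otx1, a homeobox factor of the developing brain, stood at 4.65, 4.91, 9.97 and 7.11 CPM in controls and at 0.937, 1.51, 1.18, 0.789 and 1.16 CPM in Atr-deleted libraries. It was 5.98-fold lower, and its controls differed among themselves by number series, the 1842 libraries being the higher. Pclaf, which encodes a clamp-associated factor of DNA replication, was 142, 151, 147 and 124 CPM in controls against 27.8, 29.5, 34.6, 33.0 and 27.3 CPM. It fell in all 5 libraries to a similar level, with a log2 fold change of -2.21 ± 0.08 (adjusted p = 2.18e-07). Sgo1, the shugoshin that protects centromeric cohesion, fell from 52.2 ± 4.01 to 17.9 ± 3.02 CPM (log2 fold change -1.55 ± 0.11).

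Receptors and secreted factors made up most of the other falls. Sstr2, a somatostatin receptor, was 55.1, 60.2, 65.2 and 77.6 CPM in controls and 16.5, 17.7, 20.4, 15.9 and 16.7 CPM in Atr-deleted libraries, 3.71-fold lower. Chrna3, a nicotinic receptor subunit, fell from 53.2 ± 3.68 to 17.5 ± 1.79 CPM, and its neighbour on chromosome 9, Chrnb4, which encodes a partner subunit and was chosen after its values were seen, fell from 10.6 ± 1.07 to 3.96 ± 0.785 CPM. Vipr1, the gene of a VIP neuropeptide receptor, fell by 2.08 ± 0.18 on the log2 scale. Mfap4, an elastic fibre glycoprotein, fell from 193 ± 47.1 to 70.9 ± 14.1 CPM, with controls of 155 and 150 CPM in the 100019 and 227 and 240 CPM in the 1842 libraries. Serpinb8, an inhibitor of intracellular proteases, fell from 8.43 ± 0.272 to 3.14 ± 0.385 CPM. Grik2, a kainate receptor, was the weakest call of the 19 at an adjusted p of 0.0327, and its estimates were uneven, from 1.45 to 9.81 CPM after Atr loss. It lost the call in 10 of the alternative settings, with adjusted p up to 0.170.

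Ranked by the amount of RNA instead, the gains were mitochondrial, glial and lipid transcripts, and the losses included translation and chaperone transcripts. The 6 largest gains were mt-Cytb, mt-Nd1, mt-Nd5, mt-Nd2, Sparcl1 and Scd2. The respiratory chain gene mt-Nd5 stood at 1212, 1583, 1275 and 1017 CPM in controls and at 2631, 2263, 2580, 2888 and 2366 CPM in Atr-deleted libraries, a log2 fold change of 1.001 ± 0.12. Sparcl1, an astrocyte matrix protein, rose from 1423 ± 99.4 to 2033 ± 182 CPM, and Scd2, a fatty acid desaturase of brain, from 1725 ± 80.0 to 2264 ± 174 CPM. The 6 largest losses were Eef1a1, Hspa8, Lars2, Ptma, Stmn1 and Eif4g2. Eef1a1, the translation elongation factor, fell from 6542 ± 365 to 4984 ± 248.8 CPM. Stmn1, a microtubule-destabilising protein of growing cells, was 1263, 1279, 1259 and 1313 CPM in controls and 678, 713, 828, 808 and 711 CPM after Atr loss, with no overlap. Lars2, a mitochondrial leucyl-tRNA synthetase, was 1035 CPM in Atr-deleted library 1 and 2130 to 2531 CPM in the others, and its call (adjusted p = 0.0359) was lost in 10 alternative settings, with adjusted p up to 0.136.

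Marker lists of the cells in the tissue were read beside these results. In the granule lineage list, 11 of 18 markers fell and 1 rose, against 22.0% lower and 22.5% higher among all tested genes. The median log2 fold change was -0.39. Against the 100019 controls alone 8 fell and 2 rose, and against the 1842 controls alone 16 fell and none rose. Pax6, a granule cell transcription factor, fell from 257 ± 32.4 to 163 ± 13.1 CPM, and Ccnd2, the progenitors' D-type cyclin, from 739 ± 69.4 to 459 ± 47.2 CPM. The summed level of the list was 3301 to 3868 CPM after Atr loss and 4231 to 5558 CPM in controls. The 100019 controls held 4231 and 4317 CPM and the 1842 controls 5558 and 5488 CPM. All 18 markers of the labelled tissue were detected, the lowest of them being Gabra6, a receptor subunit of mature granule neurons, at 10.5 CPM.

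Markers of several cell types outside the granule lineage rose, and those of others did not. Of 12 Purkinje cell markers 10 rose and none fell, of 9 inhibitory interneuron markers 8 rose and none fell, and of 12 astrocyte and Bergmann glia markers 10 rose and 1 fell. Gdf10, a Bergmann glia marker, rose from 240 ± 22.6 to 607 ± 74.2 CPM (log2 fold change 1.34 ± 0.10), more than Gad1, the GABA-synthesising enzyme, which rose from 205 ± 19.4 to 327 ± 39.8 CPM. In the oligodendrocyte lineage 8 of 10 rose and 1 fell: Cspg4 rose from 17.1 ± 0.936 to 43.7 ± 1.21 CPM, while Pdgfra, another gene of the precursors, fell from 183 ± 11.2 to 143 ± 4.73 CPM. The count of 8 was 4 against the 1842 controls alone and 5 without control 1, 2 or 4 or without Atr-deleted library 1, 2 or 5. Of 10 microglia markers 8 rose and none fell. Of 10 markers of endothelium and pericytes 3 rose, near the 22.5% of all genes, with 1 without control 3 or Atr-deleted library 2 and 0 without Atr-deleted library 5. The count was 1 against the 100019 controls alone and 6 against the 1842 controls alone. Of 7 erythroid markers 1 rose, and none without control 4. Against the 100019 controls alone 5 of them fell and none rose, and against the 1842 controls alone 2 rose and none fell. None of the 6 choroid plexus markers passed the test, and their sum ranged from 34.9 to 2811 CPM after Atr loss and from 64.6 to 3806 CPM in controls. None of the 8 meningeal markers passed either, but 7 fell against the 100019 controls alone and 5 rose against the 1842 controls alone, and 3 fell without control 4 and 1 without control 3. The part of these cell types in the other results was not tested.

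The clearest group changes were losses of the machinery of growth and division. Of 84 ribosomal protein genes 70 fell and none rose, against 22.0% of all tested genes lower, and their median log2 fold change was -0.38. Their summed level was 25026 to 27721 CPM in controls and 18468 to 22162 CPM in Atr-deleted libraries, with no overlap. Rpl13a was among those with the smallest p, falling from 146 ± 5.82 to 84.8 ± 4.97 CPM. Ribosome assembly factors followed: 12 of 20 fell and 2 rose, with Npm1, nucleophosmin, going from 602 ± 32.4 to 388 ± 36.8 CPM. Of 25 proteasome subunits 23 fell and none rose, with a median of -0.30 and Psmc6, an ATPase of the proteasome's base, at -0.54 ± 0.05.

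Genes of chromosome structure fell as a whole list. Among all tested genes 22.0% were lower and 22.5% higher. All 19 cohesin and condensin genes fell, with a median log2 fold change of -0.53, and all 19 did so against either number series of controls. Esco2, which acetylates cohesin in S phase, fell from 43.5 ± 1.92 to 17.5 ± 2.21 CPM, and Smc2, a condensin core subunit, from 169 ± 1.75 to 78.8 ± 8.55 CPM. In the nuclear lamina and pore list 14 of 17 fell and 1 rose. Tmpo, a lamina-associated protein of dividing cells, fell from 406 ± 12.7 to 222 ± 19.1 CPM, while Lmna, which encodes the A-type lamins of differentiated cells, was the riser, from 17.4 ± 1.62 to 35.0 ± 2.51 CPM. Among 19 genes of centriole duplication and cilia 7 fell (11 without control 1) and 1 rose, the fallers including Plk4, the kinase that starts centriole duplication (-0.83 ± 0.06).

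Splicing factors fell about as widely as ribosomal protein genes. Of 21 SR and hnRNP genes 18 fell and 1 rose, with a median of -0.38, against 22.0% lower and 22.5% higher among all tested genes. Tra2b fell from 320 ± 6.62 to 199 ± 12.9 CPM, and Srsf3 from 565 ± 13.9 to 368 ± 21.8 CPM. In the list of neuronal splicing regulators 11 of 23 fell and 6 rose. The rises were near the share of all tested genes, and were 3 without control 1, 2 or 4 or Atr-deleted library 2. Elavl2 fell by 0.71 ± 0.04 and Celf5 rose by 0.41 ± 0.05 on the log2 scale.

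Stress and protein quality genes did not rise as lists, read beside the 22.5% higher and 22.0% lower of all tested genes. Of 17 genes of the unfolded protein response of the endoplasmic reticulum 12 fell and 1 rose, with Hspa5, the main chaperone there, falling from 414 ± 18.7 to 275 ± 16.04 CPM. Of 16 heat shock chaperones 9 fell and 3 rose. Of 18 genes of glutathione and the NRF2 response 6 fell and 1 rose. Glycolysis went the other way, with 8 of 17 genes higher and none lower (3 lower without control 1), among them Eno2, the neuronal enolase, from 90.8 ± 1.48 to 145 ± 15.8 CPM. Autophagy and lysosome genes rose in 12 of 25 (7 without Atr-deleted library 2) and fell in 4, Npc1, the cholesterol exporter of lysosomes, rising by 0.53 ± 0.06 on the log2 scale.

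Genes of the matrix, of signalling and of excitability rose more often than they fell, where all tested genes had 22.5% higher and 22.0% lower. Of 22 extracellular matrix genes 15 rose and none fell, with a median log2 fold change of 0.50, but against the 100019 controls alone 9 rose and 4 fell. Tnc, tenascin C, was 320 ± 18.6 CPM in controls and 456 ± 8.06 CPM after Atr loss. Of 17 tested genes of NF-kB signalling and secreted inflammatory factors 11 rose and none fell (7 higher and 1 lower against the 100019 controls, and 7 higher without control 1, 3 or 4). Lif, a cytokine of the interleukin 6 family, rose from 0.264 ± 0.141 to 4.08 ± 0.346 CPM, and Gdf15, a secreted stress factor, from 0.212 ± 0.116 to 2.01 ± 0.321 CPM. In the Notch list 8 of 18 rose and 4 fell: the receptor gene Notch1 rose from 77.8 ± 4.83 to 139 ± 3.97 CPM, whereas Hey1, a target, fell from 103 ± 6.73 to 68.0 ± 5.49 CPM. In the Wnt list 11 of 23 rose and 7 fell, with Sfrp1, a secreted inhibitor, falling from 216 ± 18.4 to 98.5 ± 6.79 CPM.

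Ion channels rose in the balance. Of 84 potassium channel genes 29 rose and 12 fell, with a median of 0.26, against 22.5% higher and 22.0% lower among all tested genes. Kcnj4, an inward rectifier, rose from 0.459 ± 0.0442 to 2.80 ± 0.279 CPM. Of 18 sodium and calcium channel genes 10 rose and 1 fell, the faller being Cacna2d1, a calcium channel auxiliary subunit, from 114 ± 6.08 to 84.1 ± 5.48 CPM. Glutamate receptors rose in 10 of 20 and fell in 3 (1 without control 2 or Atr-deleted library 3), with Grin2b, the NMDA receptor subunit of immature neurons, falling from 111 ± 11.1 to 74.8 ± 5.97 CPM. Clustered protocadherins, the combinatorial adhesion proteins of neurons, rose in 26 of 57 and fell in none. That count varied with the libraries, at 15 with the 100019 controls alone, 14 with the 1842 controls alone, 14 without control 1, 16 without control 2 and 13 without Atr-deleted library 2. Their exons are shared between isoforms, so single members are uncertain.

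Lists of genes known from other tissues held a few risers among many members that did not pass the test. Among all tested genes 22.5% were higher and 22.0% lower. Of 19 skeletal and cardiac muscle genes 7 rose and none fell, with Myod1, the muscle master regulator, at 0.651 ± 0.154 CPM in controls and 1.92 ± 0.611 CPM after Atr loss. Of 16 keratin and epithelial genes 5 rose, and 3 without control 2 or 4 or without Atr-deleted library 2, 3 or 5. Krt5, a basal keratin, rose from 0.141 ± 0.269 to 1.46 ± 0.329 CPM. Control 2 held 0.544 CPM of it and the other controls at most 0.0204 CPM. Of 15 germ line and oocyte genes 5 rose and 1 fell, the rises being 2 without control 4 and 3 without control 1 or Atr-deleted library 1 or 2. The faller was Ooep, an oocyte factor, from 1.85 ± 0.644 to 0.438 ± 0.149 CPM. All of these levels were low. In the lowest of 5 equal bins of all tested genes by mean level, 17.1% rose and 1.92% fell.

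The regulatory lists were more mixed, and many of their counts lie near the shares of all tested genes, 22.5% higher and 22.0% lower. Of 20 genes of Polycomb and DNA methylation 10 fell and 5 rose (2 without control 4), Suz12, a core subunit of the repressive complex, going from 139 ± 2.02 to 94.3 ± 5.73 CPM. Chromatin remodellers had 2 of 17 higher and 2 lower, but 10 lower against the 1842 controls alone and 5 without control 2. Of 16 NFI, Zic and Meis factors 6 fell and none rose, with Zic5, a zinc finger factor, falling by 0.56 ± 0.06 on the log2 scale. Neurogenic bHLH and Sox factors rose in 8 of 21 and fell in 6: Sox9, of glia and stem cells, rose from 55.6 ± 3.37 to 87.4 ± 5.20 CPM and Neurod6, of young neurons, fell from 40.3 ± 2.60 to 28.7 ± 0.875 CPM. Of 25 BMP and TGF-beta genes 9 rose and 4 fell (2 without Atr-deleted library 3 or 5). Of 18 FGF and ERK feedback genes 3 rose and 7 fell, with 1 higher without control 2, 3 or 4 or without Atr-deleted library 1 or 5. Insulin, IGF and mTOR genes rose in 9 of 21 and fell in 5, which became 6 and 6 under median-of-ratios scaling. Imprinted genes followed the control series, with 2 of 18 higher and 4 lower in all, 1 and 7 against the 100019 controls and 7 and 3 against the 1842 controls.

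Neuronal surface and cytoskeleton lists likewise had calls in both directions, beside 22.5% higher and 22.0% lower among all tested genes. Synaptic vesicle genes rose in 9 of 21 and fell in 2, with Syt2, a calcium sensor of release, rising from 54.7 ± 6.48 to 100.4 ± 13.7 CPM. Of 28 axon guidance genes 4 rose and 5 fell, below both shares, and 10 rose against the 1842 controls alone. Robo3, a guidance receptor of crossing axons, rose from 1.51 ± 0.432 to 7.61 ± 1.16 CPM. Cdh7, a classical cadherin, fell from 58.9 ± 0.923 to 31.1 ± 1.66 CPM in a list where 6 of 18 fell and 3 rose. Of 19 tubulins and microtubule proteins 7 fell and 5 rose.

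**Figure D2:**
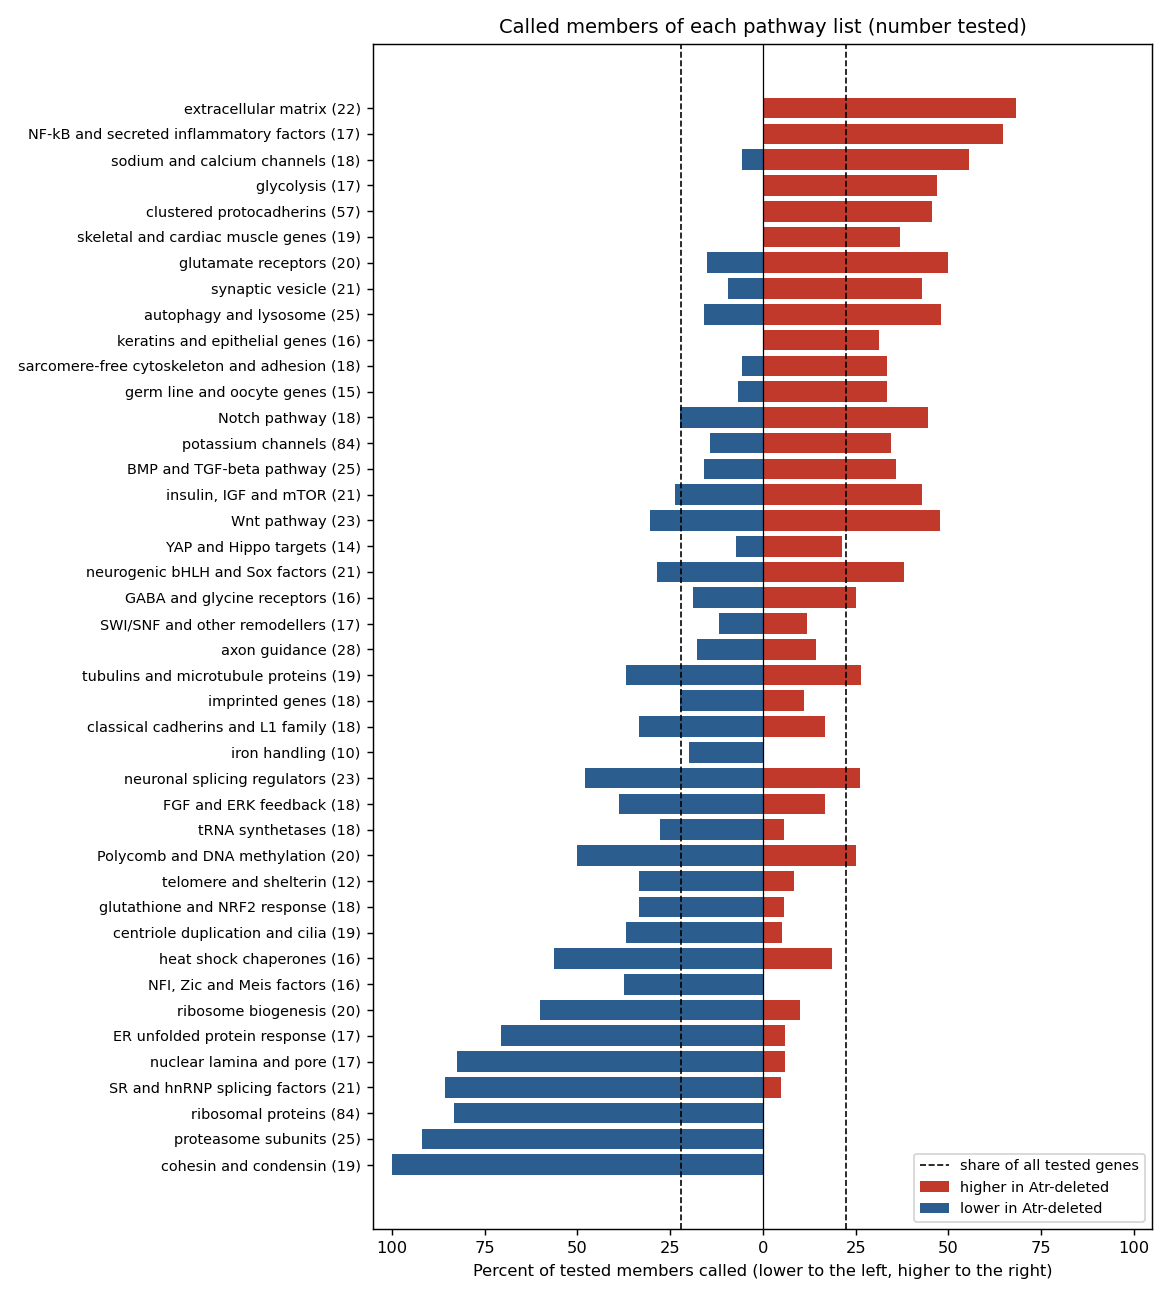
Share of the tested members of each pathway list that rose (right) or fell (left), in percent, with the number tested in brackets and dashed lines at the shares of all tested genes, 22.5% and 22.0%. The cohesin and condensin, proteasome, SR and hnRNP and ribosomal protein lists stand at the falling end and the extracellular matrix list, with 15 of 22 higher, at the rising end.

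The direction of called changes differed with how strongly a gene was expressed. When tested genes were ranked by mean level and cut into 5 equal bins, in the lowest bin 17.1% rose and 1.92% fell. In the highest bin 20.7% rose and 39.3% fell. The median log2 fold change was 0.34 in the lowest bin and -0.06 in the highest. Depth limits calls of weakly expressed genes, and its part in these shares was not tested.

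Families of genes named alike were counted without regard to function, as 221 name stems with at least 10 tested members. In 28 of them at least 50% of the members fell and in 18 at least 50% rose. Among all tested genes 22.0% were lower and 22.5% higher. Falling families included the nucleoporins (Nup, 17 of 21), the replication helicase and its relatives (Mcm, 8 of 10), the Lsm proteins of small nuclear ribonucleoproteins (10 of 13) and the mitochondrial ribosomal proteins (Mrpl, 35 of 49). Rising families included the dynein heavy chains of cilia (Dnah, 9 of 14), the Sox factors (10 of 18) and the Adamts matrix proteases (9 of 18). The stem takes in genes of unlike roles where they share letters.

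By position, the X chromosome leaned to falls, with 12.2% of its 640 tested genes higher and 29.7% lower. Against the 100019 controls alone these were 12.6% and 29.6%, and against the 1842 controls alone 11.8% and 28.6%. The libraries with little Y-linked RNA were 3 of 5 Atr-deleted and 1 of 4 controls, and the part of sex here was not tested. On the other nuclear chromosomes apart from Y the share that rose was 18.3% to 27.9%. Around Atr on chromosome 9, within 5 Mb 49.0% of 51 genes were called, and within 10 Mb 40.7% of 123, beside 44.3% on the whole chromosome.

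Runs of neighbours that all rose marked clusters of early embryo genes. At the Zscan4 cluster on chromosome 7, 7 consecutive tested genes from Zscan4b to Zscan4-ps2 rose. Zscan4 genes are transiently active in the embryo at genome activation and in a few embryonic stem cells. The cluster held 1, 2, 1 and 1 estimated counts in the controls and 306, 842, 708, 587 and 1212 counts in the Atr-deleted libraries, or 3.94 to 20.7 CPM. In the p53-deleted libraries it reached at most 0.144 CPM. A run of 8 genes on chromosome 5 from Gm16429 to Gm7982 held 1 count in all controls together and 1544 counts after Atr loss, and a run of 6 on chromosome 10 from Gm21293 to Gm20765 held 2 counts against 829.3. Every gene of these runs shares at least 58.8% of its 31-base words with other genes, so the counts of single members are uncertain. Whether those other genes lie within the same run was not tested, so the sums can be uncertain too. The remaining runs were the mitochondrial genes.

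Which transcript of a gene was used was tested next. Usage was counted as changed where edgeR's exon-usage test applied to transcripts gave an adjusted p below 0.05 and the share of at least 1 transcript moved by 10 percentage points or more. By that rule 367 of 10030 genes changed usage (3.66%). Among the 367, 97 had risen as genes, 99 had fallen and 171 had not passed the gene-level test. In 160 the transcript that gained and the one that lost start more than 500 bases apart, in 99 they end more than 500 bases apart, and in 146 both ends lie within 500 bases. The losing transcript was annotated as protein coding in 348, and in 131 of those the gainer was not, including 80 retained-intron and 35 nonsense-mediated decay transcripts. The count was sensitive to the libraries, rising to 651 without control library 3 and to 761 with the 100019 controls alone. It fell to 178 when transcripts whose lanes differed beyond counting error were left out. Those were most of the transcripts, 24924 of the 44335 in the test (chi-square p below 0.01). Fewer transcripts can lower the count by themselves, and the part of lane differences in the usage results was not tested.

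Trp73 showed the largest switch among the genes named for usage. It encodes p73, a relative of p53, and is known to use an internal promoter whose short products lack the amino-terminal activation domain. The gene rose from 8.72, 7.86, 12.2 and 13.2 CPM in controls to 37.7, 63.9, 50.3, 49.8 and 51.0 CPM (log2 fold change 2.25 ± 0.20, adjusted p = 3.36e-05). The transcript Trp73-205, with a first base at 154097173 on chromosome 4 and 43035 bases inside the start of Trp73-204, held 2.39, 0.0, 2.21 and 0.16 CPM in controls and 30.5, 54.8, 41.1, 40.0 and 43.7 CPM after Atr loss. Trp73-204, the full-length form, stayed within 6.20 to 12.9 CPM in controls and 6.73 to 9.21 CPM in Atr-deleted libraries, so the rise lay in the internal form. The share of Trp73-205 went from 11.8 ± 13.4% to 83.2 ± 2.45% (adjusted p of usage 0.000344). Lanes of the same library differed by up to 49.7 points in a control and by at most 6.998 points in Atr-deleted libraries, so the control share is the uncertain one. In the p53-deleted libraries the share of Trp73-205 ranged from 0.0% to 61.3%, with means of 37.3% in Atr-deleted and 23.0% in controls.

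The 250 bases before the internal Trp73 start hold a p53-type element, and they are shown beside those of Cdkn1a and Ccng1, known p53 targets that also rose and hold such an element. Cdkn1a, the arrest factor p21, rose from 57.2, 61.7, 47.6 and 53.4 CPM to 220, 287, 282, 264 and 266 CPM, and Ccng1, cyclin G1, from 84.0 ± 8.07 to 207 ± 15.8 CPM. The element was searched by name as 2 adjoining 10-base p53 decamers with at most 2 mismatches over the 20 bases, on both strands, since the site is its own reverse complement in form. Capitals mark it, and sequences are from RefSeq (GRCm38.p6), 5′ to 3′ in the direction of the gene.
Trp73, internal start, chr4:154097174-154097423, minus strand: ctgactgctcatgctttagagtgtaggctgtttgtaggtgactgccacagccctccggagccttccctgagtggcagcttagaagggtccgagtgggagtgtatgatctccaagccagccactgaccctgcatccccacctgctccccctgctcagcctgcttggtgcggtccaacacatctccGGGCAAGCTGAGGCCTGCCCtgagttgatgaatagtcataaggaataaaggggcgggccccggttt
Cdkn1a, chr17:29090729-29090978, plus strand: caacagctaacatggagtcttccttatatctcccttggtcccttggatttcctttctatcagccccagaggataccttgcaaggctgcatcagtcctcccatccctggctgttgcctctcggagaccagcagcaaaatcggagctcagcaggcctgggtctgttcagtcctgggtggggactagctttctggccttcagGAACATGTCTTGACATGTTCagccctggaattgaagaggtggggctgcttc
Ccng1, chr11:40755287-40755536, minus strand: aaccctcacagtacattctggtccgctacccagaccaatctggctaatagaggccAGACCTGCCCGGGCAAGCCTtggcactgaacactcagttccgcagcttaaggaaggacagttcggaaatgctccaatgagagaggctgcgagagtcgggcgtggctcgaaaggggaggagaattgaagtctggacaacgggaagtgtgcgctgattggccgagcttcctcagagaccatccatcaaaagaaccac
The element begins 66 bases before the internal start in Trp73 with 2 mismatches and 195 bases before the start in Ccng1 with 1 mismatch. In Cdkn1a it begins 51 bases before an upstream start, at 29090979, with 1 mismatch. The 250 bases before a downstream Cdkn1a start at 29093769 hold no such element. Those before an upstream Trp73 start at 154139875 hold none either.

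Such an element was rare. In windows from 250 bases before to 50 bases after a start it was found at 89 of 32851 annotated starts (0.271%) and in 47 of 12669 tested genes with a sequence (0.371%). Among 410 genes that rose over 2-fold and had a sequence, 8 held it (1.95%): Ms4a10, Cd80, Cdkn1a, Trp73, Calhm2, Mst1, Ccng1 and Zfp365. None of 76 genes that fell over 2-fold held it, but at a rate of 0.371% so few genes would seldom hold any. This absence therefore does not set falls apart from other genes. Ms4a10 and Mst1 were near the floor, with means of 0.261 and 0.298 CPM after Atr loss and 0.0 and 0.0652 CPM in controls. Calhm2, a channel gene, rose from 1.09 to 1.19 CPM in controls to 4.41 to 6.89 CPM, and Zfp365, a protein of genome stability, from 22.0 to 26.1 CPM to 53.1 to 60.1 CPM. None of the 8 of the 10 largest risers with a sequence held the element, and these too are few for so rare an element. A match is a description of these letters and not a measure of binding.

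Mdm2, the ubiquitin ligase that degrades p53, also gained a transcript from an inner start. It is known to have a second, p53-responsive promoter in its first intron. As a gene it rose from 54.4, 55.4, 63.9 and 58.7 CPM to 89.7, 94.9, 93.2, 94.7 and 88.8 CPM (log2 fold change 0.67 ± 0.05). Mdm2-209, which starts 736 bases downstream of Mdm2-201 and is annotated to nonsense-mediated decay, went from 0.98, 0.0, 2.66 and 2.27 CPM to 13.6, 18.7, 18.97, 18.7 and 19.97 CPM. Mdm2-201 moved from 50.4 ± 2.30 to 56.1 ± 2.86 CPM. The inner form was 12.1-fold higher between group means and the long form 1.11-fold. The share of Mdm2-209 in the gene was 2.46 ± 1.94% in controls and 19.5 ± 2.69% after Atr loss. In the p53-deleted libraries it ranged from 1.62% to 15.9%, with means of 6.94% in Atr-deleted and 10.4% in controls, so the highest of them, a control, lay within the Atr-deleted range here, 15.1% to 22.5%.

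**Figure D3:**
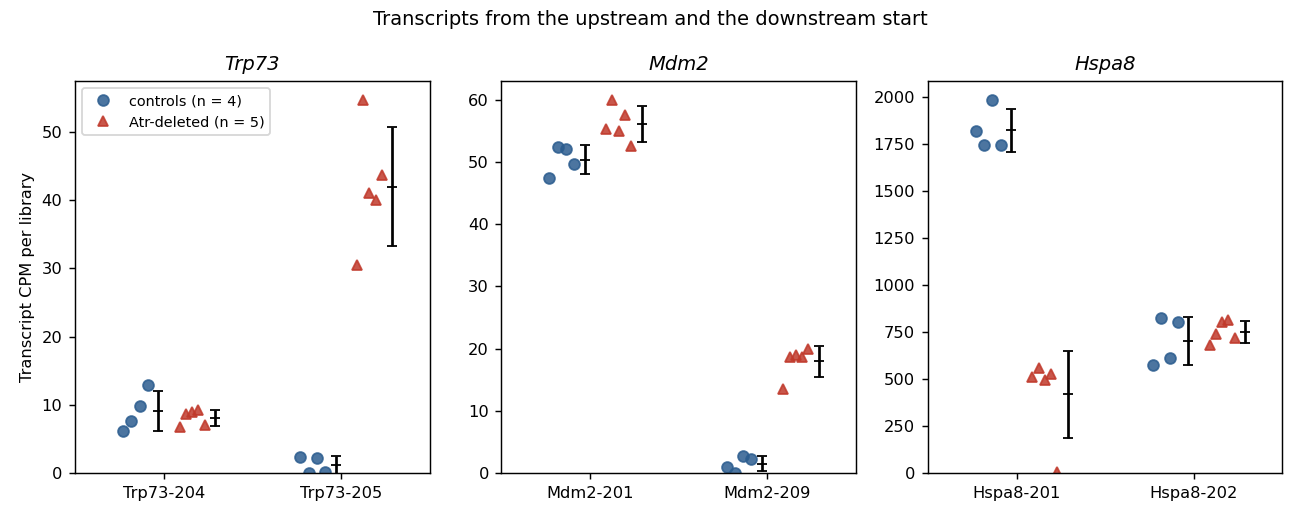
Level of the transcripts of the upstream and the downstream start of Trp73, Mdm2 and Hspa8, in CPM, as points for each library with the mean and SD of each group. In Trp73 the gaining transcript rises from 1.19 to 42.0 CPM while Trp73-204 stands at 9.13 and 8.08 CPM, and in Hspa8 the losing transcript falls while Hspa8-202 stands at 704 and 750 CPM.

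Hspa8, the constitutive heat shock chaperone, lost 1 of its 2 main transcripts. Hspa8-201 held 1817, 1743, 1986 and 1746 CPM in controls and 509, 557, 494, 527 and 7.14 CPM in Atr-deleted libraries. Hspa8-202, which begins downstream of it, held 704 ± 128 CPM in controls and 750 ± 57.0 CPM after Atr loss, so the gene's fall from 2550 ± 99.6 to 1218 ± 218 CPM lay in Hspa8-201. In Atr-deleted library 5 nearly none was assigned to Hspa8-201. In the p53-deleted libraries its share ranged from 0.495% to 59.8% in both genotypes, and with controls of 1 number series alone the usage call was lost (adjusted p 0.0770 and 0.184). The change in this gene is therefore less certain in the division between transcripts than in the sum.

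Further genes named for usage moved their largest share by 24.6 to 41.6 points. Rbm39, an RNA-binding splicing factor, moved from Rbm39-201 (131 ± 9.13 to 53.7 ± 8.10 CPM) to Rbm39-217 (33.0 ± 6.21 to 99.5 ± 9.18 CPM), both of the same coding length of 1572 bases. Osbp2, an oxysterol-binding protein, fell in its long form Osbp2-201 from 51.1 ± 3.90 to 26.6 ± 3.31 CPM, while the short form Osbp2-203 went from 12.5 ± 3.14 to 21.7 ± 2.37 CPM. Net1, a guanine nucleotide exchange factor, moved to the inner start of Net1-202, which took 45.5 ± 5.38% of the gene in controls and 70.1 ± 3.22% after Atr loss. Ccdc59 moved to the retained-intron transcript Ccdc59-202, from 24.95 ± 9.22% to 50.2 ± 6.15%, a call lost in lane 2 alone, without control 2, control 4 or Atr-deleted library 1, and against the 1842 controls alone (adjusted p up to 0.145). Phka2, where Phka2-201 went from 57.6 ± 16.5% to 15.96 ± 11.1%, lost its call in either lane alone (adjusted p 0.144 and 0.0949) and without control 2 or Atr-deleted library 1 or 5. Trim11 lost its call in lane 1 alone (adjusted p 0.0796) and against the 1842 controls alone (0.0617), and Fat2 had lanes that differed by up to 57.8 points, so these 3 are uncertain.

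Across protein-coding genes the share of counts in transcripts annotated as retained introns was higher after Atr loss. It was 2.07%, 1.43%, 2.46% and 1.72% in controls and 3.15%, 2.50%, 2.38%, 2.58% and 2.48% in Atr-deleted libraries, with control 3 inside the Atr-deleted range (two-sided exact permutation p = 0.0159, adjusted over 4 types 0.0159). Nonsense-mediated decay transcripts went from 1.73 ± 0.0647% to 1.88 ± 0.0351% and processed transcripts from 1.20 ± 0.0675% to 1.41 ± 0.0474%, both at the smallest exact permutation p this design allows, 0.00794 (adjusted 0.0106). In the p53-deleted libraries the retained-intron share was 1.82% to 2.82%, overlapping both groups. The difference was 0.70 points, and leaving out 1 library gave 0.534 to 0.876 points. The exact permutation p was then 0.0571 without Atr-deleted library 1, 2, 4 or 5, where 4 against 4 allows no p below 0.0286, and it was 0.143 against the 1842 controls alone.

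**Figure D4:**
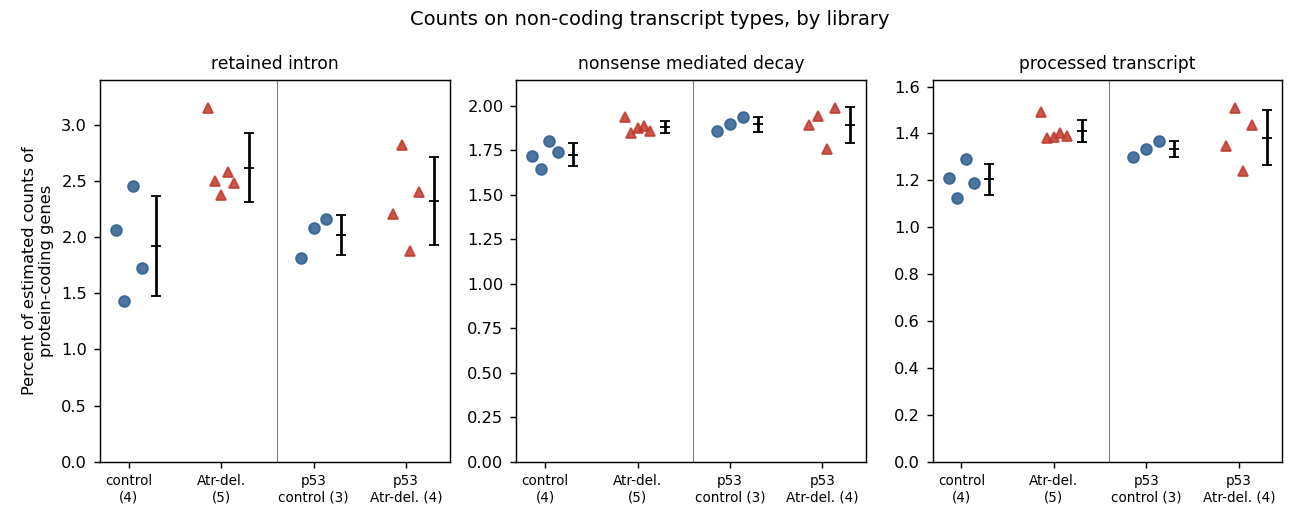
Share of the counts of protein-coding genes in transcripts annotated as retained intron, nonsense-mediated decay and processed transcript, in percent, for each library of both backgrounds, with the mean and SD of each group. Without Bax and Bak the Atr-deleted libraries lie above the controls, except that control 3 overlaps them for retained introns.

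Gene by gene the retained-intron share moved broadly. Of 4946 genes with such a transcript and at least 50 CPM, 813 had a higher share in every Atr-deleted library than in any control (16.4%), and 44 had a lower one (0.890%). The median difference was 0.92 points in genes that had risen, 0.84 in genes that had fallen and 0.96 in the rest. Among the widest was Sos2, a Ras exchange factor, at 15.8 ± 2.88% in controls and 35.0 ± 5.53% after Atr loss. Its p53-deleted libraries moved likewise, with means of 12.7% in controls and 30.1% in Atr-deleted. Ppid, a peptidyl-prolyl isomerase, went from 13.5 ± 5.89% to 31.8 ± 4.16%, and Srsf11, a splicing factor, from 28.2 ± 10.8% to 46.7 ± 4.73%. Of ribosomal protein genes with such a transcript 23 of 42 were higher without overlap, of cohesin and condensin genes 8 of 12, of SR and hnRNP genes 5 of 14, of nuclear lamina and pore genes 2 of 8 and of neuronal splicing regulators 2 of 10.

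The same alleles of Atr were deleted in the other cerebella of the series, where p53 rather than Bax and Bak was deleted: 4 libraries used with Math1-Cre, Atr-loxP/loxP and also p53-loxP/loxP, and 3 controls with Math1-Cre and p53-loxP/loxP. A further Atr-deleted library with 13601 counts was not used in this test. Of 18189 genes 2929 differed in their response to Atr loss between the backgrounds (16.1%), and 1628 without control 3 and 1826 without control 2 of the p53-deleted group. The background is confounded with the deposited table, and the control alleles differ too. The 19 changes described above were chosen for their size in the same libraries without Bax and Bak. A difference was thus favoured in advance, and their share does not compare with the 16.1% of all genes. All 10 rises and 7 of the 9 falls differed. The exceptions were Otx1 (adjusted p = 0.0815, and 0.0366 with DESeq2) and Grik2 (adjusted p = 0.528).

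None of the 10 rises passed the test without p53. Pmaip1 was 5.85 ± 1.09 CPM in Atr-deleted and 5.28 ± 0.360 CPM in control libraries there, and the difference of the log2 effects was 3.41 ± 0.25 (adjusted p of the edgeR interaction 1.14e-06). Alox5 was 0.295 ± 0.125 against 0.424 ± 0.195 CPM, and Fas 0.327 ± 0.256 against 0.357 ± 0.0895 CPM. Trp73 stood at 4.36 ± 0.890 and 5.23 ± 1.31 CPM, with a difference of effects of 2.50 ± 0.29. Among the falls, Pclaf was 107 ± 21.8 and 112 ± 7.67 CPM without p53, and Sgo1 was 44.0 ± 5.19 and 34.7 ± 4.00 CPM. Of the 19 genes Sstr2 alone passed the test in the p53-deleted cerebella, at a log2 fold change of -0.73 (adjusted p = 0.0115), and its fall was larger without Bax and Bak. Transcript usage changed in 16 of 9720 genes there by the same rule, a comparison with fewer libraries, and the difference in that count was not tested.

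**Figure D5:**
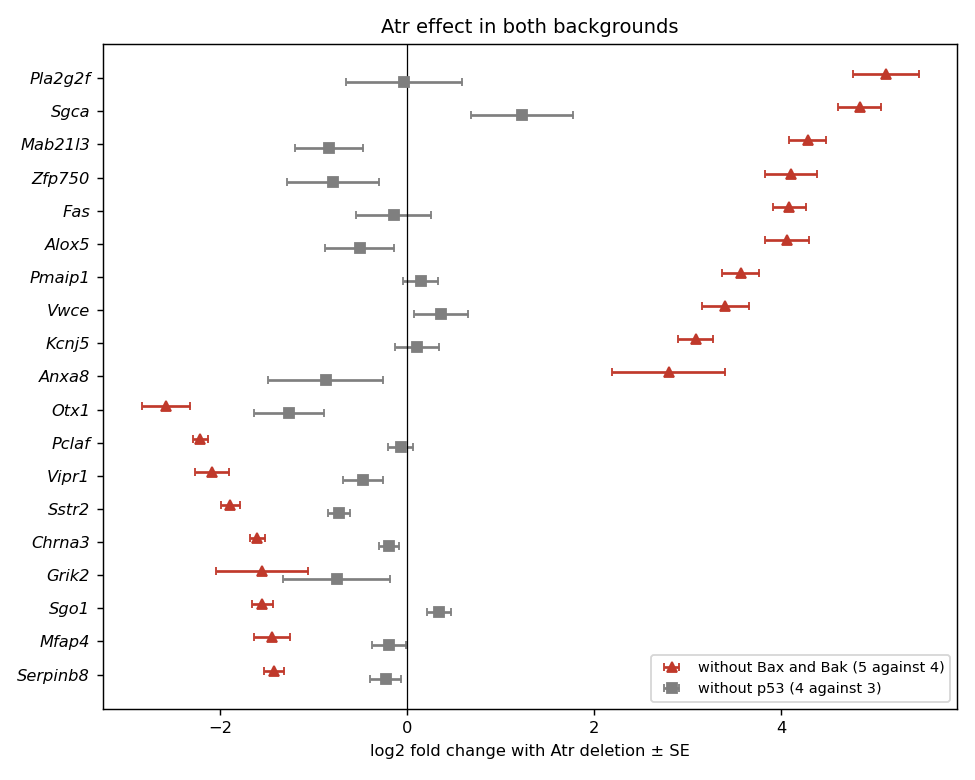
Log2 fold change with Atr deletion, with its standard error, for the 19 genes in the cerebella without Bax and Bak and in those without p53. The 10 rises lie between 2.80 and 5.12 without Bax and Bak and between -0.87 and 1.23 without p53.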

How the data were processed

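Per the labels' protocols, the RNA was poly-A selected and the TruSeq libraries keep the strand. The deposited values are estimated counts for each Ensembl transcript in each lane. Tools and builds named in the submitters' processing notes, with no role given, are kallisto 0.42.4, edgeR, mm9 and GRCm38. Kallisto divides reads among similar transcripts, so near-identical genes and transcripts depend on that division. The 2 lanes were summed, and gene sums were formed with GENCODE M21 (GRCm38). Of 94080 identifiers 92372 matched, and the rest held 0.746% to 0.842% of the counts in these libraries. Sums were rounded and fitted with edgeR 4.0.16 in R 4.3.3 (quasi-likelihood, robust, TMM, default expression filter, genotype alone). CPM are on TMM-scaled library sizes, and standard errors are of the log2 fold change.

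Usage was tested with diffSpliceDGE on transcripts with at least 10 counts in 4 libraries. For single values the test was an exact permutation, two-sided, of the mean difference. In counts simulated with the mean levels and library sizes of this comparison, the fit found 62% of 1.5-fold and 85% of 3-fold changes. It made 11 false among 158 calls over 17195 genes. For each fold 100 genes were changed, up and down alike, whereas 44.5% of the tested genes were called in the data. The rates need not hold at that share. For usage 21% of changes of 10 points and 73% of 20 points were recovered with 7 false of 101 calls over 9734 genes. Alternatives used DESeq2 1.42.0, limma 3.58.1, other scalings, filters, lanes, control series and each library left out.

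Genes were named by rule: those deleted, the 10 of largest rise and the 10 of largest fall, the 6 largest gains and losses in CPM, up to 3 members of each of the 53 lists by smallest p, the 10 largest changes of usage and the runs of neighbours. At least 5 CPM, groups that do not overlap, a standard symbol and at most 50% shared 31-base words were required of the largest changes. A gene of the largest falls is not reported here. Cdkn1a, Ccng1, Calhm2, Zfp365, Chrnb4 and the genes of the element and retained-intron counts were chosen after their values were seen. The members and lists were chosen with earlier results of these data known. Of the listed genes 22 did not match, 17 of them in the list of small nucleolar RNA host genes, which was therefore not described.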

Additional observations from a re-analysis of the deposited data

Results flagged for a closer look

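Single libraries stood apart from the rest of their group, by Dixon's criterion at 95%, in 17 of 208 group values tested, where chance alone gives about 1 in 20. In Hspa8 the lowest Atr-deleted library, number 5, held 840 CPM beside 1220 to 1365 in the others, and in it Hspa8-201 had 0.850% of the gene beside 36.8% to 42.1% and Hspa8-202 had 85.5% beside 55.6% to 60.0%. The lowest Hspa8 control was 2401 CPM beside 2596 to 2607.

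Atr-deleted library 1 was the lowest for Lars2 (1035 CPM beside 2130 to 2531), Bax (25.03 CPM beside 33.3 to 36.3) and Gdf10 (479 CPM beside 611 to 663). The same library was the highest for the share of retained-intron transcripts (3.15% beside 2.38% to 2.58%) and of processed transcripts (1.49% beside 1.38% to 1.40%). Among other Atr-deleted values, the highest Kcnj5 was 16.6 CPM and the highest Phka2 31.2 CPM, and the lowest Serpinb8 was 2.46 CPM, the lowest Psmc6 97.8 CPM and the lowest Sox9 78.3 CPM. Among controls the highest Vwce was 0.815 CPM, the highest Krt5 0.544 CPM and the lowest Calhm2 1.09 CPM.

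The effect of Atr deletion differed between the backgrounds without Bax and Bak and without p53, by the edgeR interaction test, in 19 of 21 genes read. These genes were chosen for changes in the same libraries without Bax and Bak, which favoured a difference in advance. For the rises the difference of log2 effects was 5.13 for Pla2g2f, 3.60 for Sgca, 5.11 for Mab21l3, 4.89 for Zfp750, 4.21 for Fas, 4.56 for Alox5, 3.41 for Pmaip1, 3.02 for Vwce, 2.96 for Kcnj5, 3.63 for Anxa8 and 2.50 for Trp73. For the falls it was -2.16 for Pclaf, -1.63 for Vipr1, -1.18 for Sstr2, -1.42 for Chrna3, -1.91 for Sgo1, -1.27 for Mfap4, -1.21 for Serpinb8 and -1.11 for Hspa8. The last lost the call when any of 5 single libraries was left out, with adjusted p of 0.0533 to 0.0946.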

How the results depend on the processing

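Titles end in a number, and 4, 7 and 9 occur in both genotypes, within different number series. With that number as a replicate block over these 6 libraries, chosen after the data were seen, 5442 genes changed (2726 higher and 2716 lower), and 5361 without the block. Deviations from the group means correlated at 0.21, 0.15 and 0.0027 in the libraries of numbers 4, 7 and 9, and not every library correlated best with its own number, so the samples were not taken as pairs. The count of changed genes was 6713 to 7770 when each library was left out. Genes higher by over 2-fold numbered 477 to 763 over these, and 309 with a mean of at least 1 CPM required. Genes lower by over 2-fold numbered 111 to 167, and 244 against the 100019 controls alone. The count of usage changes was 250 to 651 with each library left out, 761 against the 100019 controls alone, 178 without transcripts whose lanes differed, 910 at a threshold of 5 points and 66 at 20 points. The counts at 5 and 20 points follow from the threshold, and for the others the cause was not tested. Genes differing between backgrounds numbered 1628 to 3562 with each library left out, 1628 without control 3 and 1826 without control 2 of the p53-deleted group, and the cause was not tested. The first principal component held 43.2% over the 1000 genes of highest variance. No tested log2 fold change, share or difference of effects of a named gene changed sign under the alternatives run. The balance of higher against lower genes did turn with scaling, and that of some lists, imprinted genes and meningeal markers among them, with the control series. Of the log2 fold changes named by the rules for largest changes and for Trp73, calls were lost only for Grik2 and Lars2. The retained-intron alternatives were chosen after the data were seen. On counts divided by transcript length, the 9 libraries separated for retained introns, with 3.39 ± 0.658% in controls and 4.64 ± 0.443% in Atr-deleted libraries (exact permutation p = 0.00794). Depth limits calls of weakly expressed genes: at the shallowest library 1 count is 0.0233 CPM.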
